A study of Sus scrofa with 297 samples.

Results

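The 8 genes SLC5A4, MFAP3L, UNC93A, PQLC3, CNIH3, ABHD14B, TMSB10 and WDYHV1 were measured in liver RNA of adult German Landrace pigs, taken at slaughter and hybridised to the Affymetrix Porcine Snowball array, 1 array per animal. They are the genes that the study listed with both a cis-eQTL, a DNA variant near the gene that goes with its transcript level, and a correlation with fat area (FA), the fat over the loin muscle at the 13th/14th rib. The members were thus chosen by their correlation with fat area in these same pigs, and these correlations, and how many of them pass a limit set over all transcripts, are given here as a description from which nothing is read. By gene symbol 17 of 47722 probe sets belonged to the 8 genes, and 11 of these 17 were among the 24815 probe sets tested, the upper 52% by the 20th percentile of signal over the livers. All signals are on the log2 scale, so that 1 unit is a doubling. The probe set of each gene with the highest mean signal stands for it below unless another set is named. Loin eye area (LEA, the area of the longissimus muscle), FA and their ratio (MFR) were labelled for all but 8 pigs. Over the labelled pigs, whose number stands with the methods, FA had a mean of 14.08 cm2 ± 5.23 (SD) and LEA of 43.71 cm2 ± 5.96 (SD), and the 2 areas had a Spearman's rho of -0.182 with each other. MFR, labelled as meat to fat, equalled FA divided by LEA within 0.005, so it is high in fat pigs and holds the measure that chose the members. Neither sex nor genotype was used here.

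The liver takes up and releases glucose, builds lipoproteins and breaks down amino acids, and its bulk RNA also holds transcripts of Kupffer cells, blood leukocytes, endothelium and stellate cells. The 8 genes share no pathway. SLC5A4, known as SGLT3, is a sodium-coupled carrier that moves glucose in pig cells. UNC93A is a membrane protein related to facilitator carriers, and PQLC3 belongs to the PQ loop family, of which cystinosin exports cystine from lysosomes. CNIH3 is a cornichon, a cargo receptor for export from the endoplasmic reticulum that is best known in nerve cells. ABHD14B is an alpha/beta hydrolase that removes acetyl groups from lysines in human cells, and MFAP3L is a membrane protein with an immunoglobulin domain. TMSB10, thymosin beta 10, binds actin monomers. WDYHV1 turns glutamine at a protein's amino end into glutamate in the N-degron pathway, which marks proteins for breakdown.

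Array medians ranged from 5.58 to 5.78, and Pearson's r between 2 arrays over the tested probe sets from 0.790 to 0.986 with a median of 0.951. The 9 hepatocyte markers tested had median signals of 10.82 to 13.95. Animal numbers with the same first 2 digits formed 9 number series of 9 to 94 pigs, whose meaning the labels do not state. A share of 6.7% of the rank variance of FA and 22.2% of that of LEA lay between them, so rho is also given with ranks centred within number series.

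Among the carriers, SLC5A4 and UNC93A had a positive rho with FA and PQLC3 a negative one. The signal of SLC5A4 ranged from 5.58 over a median of 6.30 to 7.18. In the 58 pigs with the smallest FA (up to 9.5 cm2) it was 5.66 to 6.88 with a median of 6.24, and in the 58 with the largest FA (from 18.3 cm2) 5.70 to 7.18 with a median of 6.415, so that the ranges overlapped almost whole while 77.6% of the fat pigs lay above the median of the lean ones. Its rho with FA was 0.249, or 0.237 within number series, and it was positive in 9 of 9 series (0.151 to 0.489). The slope was 0.14 ± 0.03 (SE) log2 units per 10 cm2 of fat, a signal 1.1 times as high.

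UNC93A ranged from 6.61 over 7.79 to 8.88. Its median was 7.68 (6.73 to 8.57) in the leanest 58 pigs and 8.05 (6.91 to 8.72) in the fattest 58, a ratio of 1.29, the widest step between those pigs among the members. Its rho with FA was 0.242, 0.236 within number series, 0.152 with 5 principal components of the expression values removed, and positive in 8 of 9 series. The exception was series 22, with -0.305 over 12 pigs.

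PQLC3 ran the other way. Its signal ranged from 5.58 over 6.64 to 7.17, with a median of 6.75 (6.07 to 7.14) in the leanest and 6.60 (5.58 to 7.10) in the fattest 58 pigs, where only 24.1% exceeded the median of the lean ones. The rho with FA was -0.196, -0.221 within series, and negative in 9 of 9 series (-0.680 to -0.087). It was steeper in animals numbered below 2800 (-0.290) than from 2800 on (-0.097), and the difference was not tested.

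**Figure D1:**
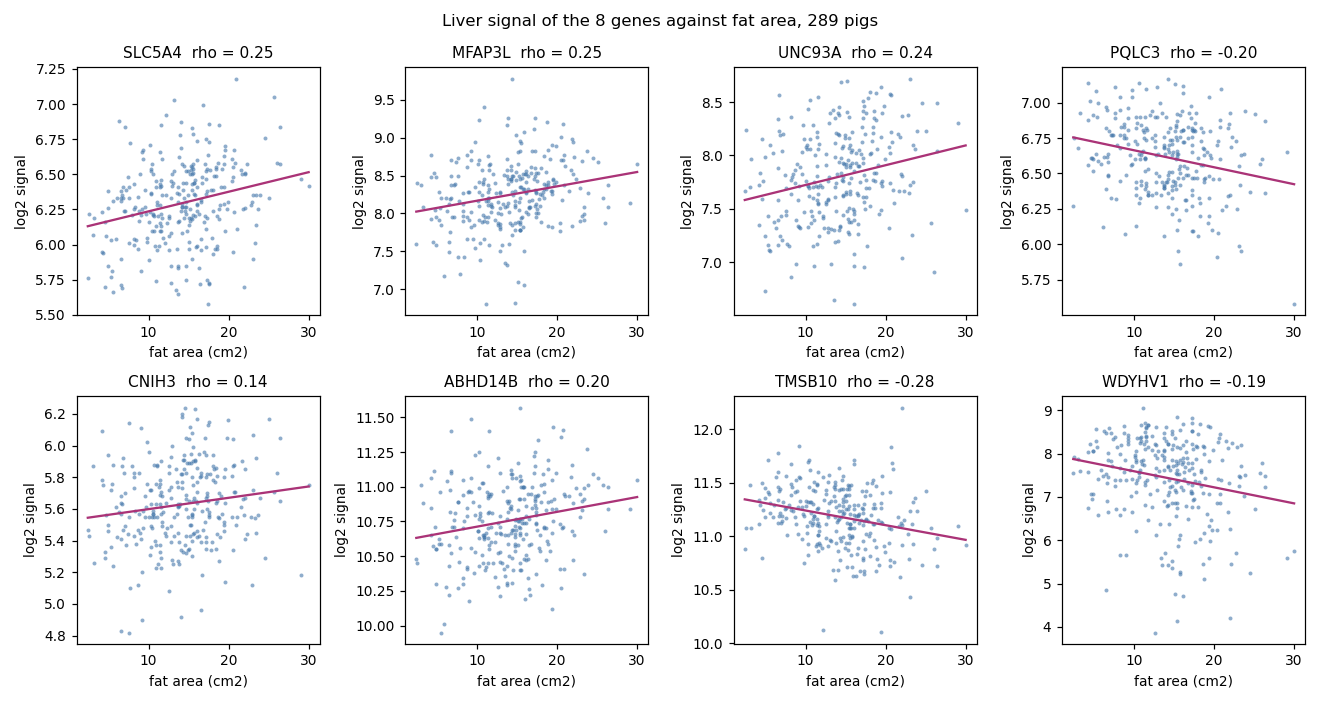
Log2 signal in the liver (vertical) against fat area in cm2 (horizontal) for the 8 genes, each by its probe set with the highest mean signal; points are the pigs with traits and lines are least squares fits. The points spread widely about every line, and rho lies between -0.282 for TMSB10 and 0.249 for SLC5A4.

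Of the other members with a positive slope, MFAP3L ranged from 6.81 over 8.26 to 9.78, a 7.84-fold span. It had medians of 8.105 (7.17 to 8.83) in the leanest and 8.39 (7.77 to 9.21) in the fattest pigs, of which 79.3% exceeded the lean median. Its rho was 0.246, 0.274 within series, and 0.112 for the mean of its 3 probe sets. ABHD14B was between 9.95 and 11.57 with a median of 10.76, and its medians in the leanest and fattest pigs were 10.71 and 10.885, with rho 0.201, 0.219 within series. CNIH3 was between 4.82 and 6.24 with a median of 5.62, and its medians in those pigs were 5.555 and 5.65, with rho 0.142, the smallest of the 8. This set lay near the filter, with a 20th percentile of 5.41 against a limit of 5.33. Its median was below the median of the array medians (5.69), and the other CNIH3 sets failed the filter. All correlations of CNIH3 are thus those of a low signal. Among odd animal numbers the rho of CNIH3 was 0.023 and among even ones 0.271, and the difference was not tested.

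TMSB10 had the largest rho in size. Its signal ranged from 10.10 over 11.19 to 12.20. The median was 11.30 (10.80 to 11.84) in the leanest 58 pigs and 11.105 (10.10 to 12.20) in the fattest 58, of which 24.1% exceeded the lean median. The rho with FA was -0.282, -0.239 within series, and negative in 8 of 9 series. The slope was -0.14 ± 0.03 (SE) log2 units per 10 cm2, a signal 0.909 times as high. Below 2800 the rho was -0.370 and from 2800 on -0.181. Neither value was centred within number series, and the difference was not tested.

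Over the tested transcripts, 0.330% passed a Benjamini-Hochberg FDR of 1% for FA, and 4 of the 8 members did, SLC5A4, MFAP3L, UNC93A and TMSB10. Since FA chose the members, nothing is read from this count, nor from that for MFR, which holds FA. UNC93A lay just inside the limit of 0.2419 in size, and the next members outside it were ABHD14B at 0.201 and PQLC3 at -0.196. For MFR the background was 0.193%, and MFAP3L alone was called, with rho 0.252, and all 8 members had the sign they had with FA. Without the 2 pigs farthest from the median FA, the 8 values were between -0.275 and 0.244.

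WDYHV1 gave 2 answers, because its 2 probe sets, with mean signals of 7.438 and 7.432, gave opposite signs. Set 021588 ranged from 3.87 over 7.60 to 9.06, a 36.5-fold span, with an SD of 0.938 that exceeded that of 99.7% of tested transcripts. Set 005628 ranged only from 6.46 over 7.44 to 8.29, with an SD of 0.331. The rho between the sets was -0.080 over all livers. With FA the first set had a rho of -0.190 and the second 0.204, and both kept their sign within series, at -0.173 and 0.149. In the fattest 58 pigs the median of the first set was 7.355 (4.20 to 8.69) against 7.685 (4.85 to 8.63) in the leanest, and that of the second 7.555 (6.91 to 8.17) against 7.355 (6.73 to 8.16). No direction with FA can be given for WDYHV1 as a gene.

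**Figure D2:**
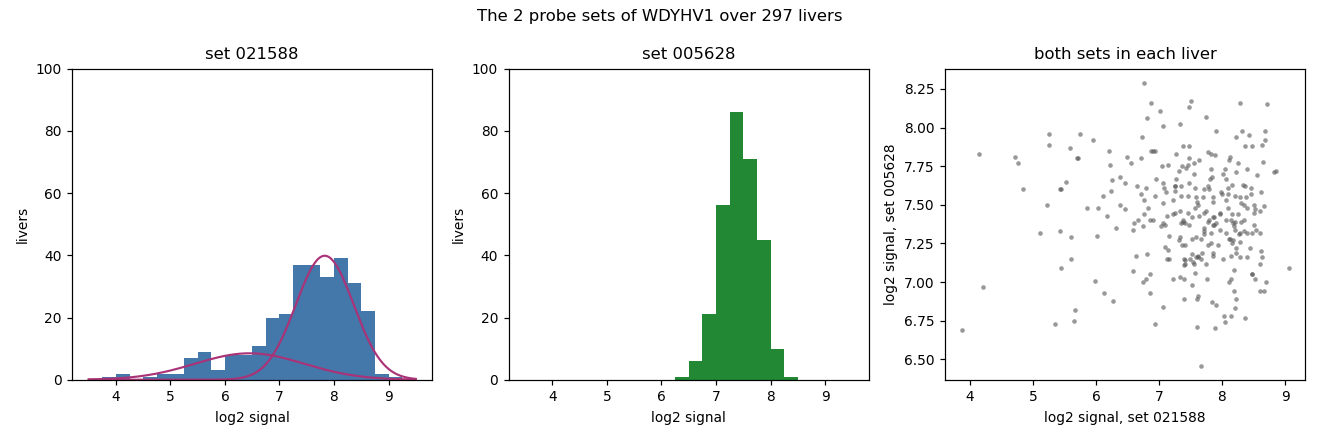
Number of livers by log2 signal for the 2 WDYHV1 probe sets (bins of equal width, lines the 2 fitted normal components of the first) and, at the right, both signals in each liver. The first set trails down to 3.87 while the second stays between 6.46 and 8.29, and the points show no slope.

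Probe sets of other members also differed. Of the 8 genes 6 had at least 2 probe sets. The second tested set of UNC93A, 039783, had a rho of -0.029 with FA and -0.127 with the first set. The other 2 sets of MFAP3L had -0.043 and -0.027 with FA, and neither was tested. The second set of SLC5A4, also below the filter, had 0.143 with FA and 0.106 with the first set. In contrast, the 2 sets of ABHD14B followed each other closely, with a rho of 0.866, and the second, 026971, had the larger rho with FA, 0.234, positive in 9 of 9 series. All 4 sets of CNIH3 had a positive rho with FA, from 0.142 to 0.243, and those between the sets were 0.185 to 0.585. The highest, for set 013269, came from a set just under the filter on low signal.

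**Figure D3:**
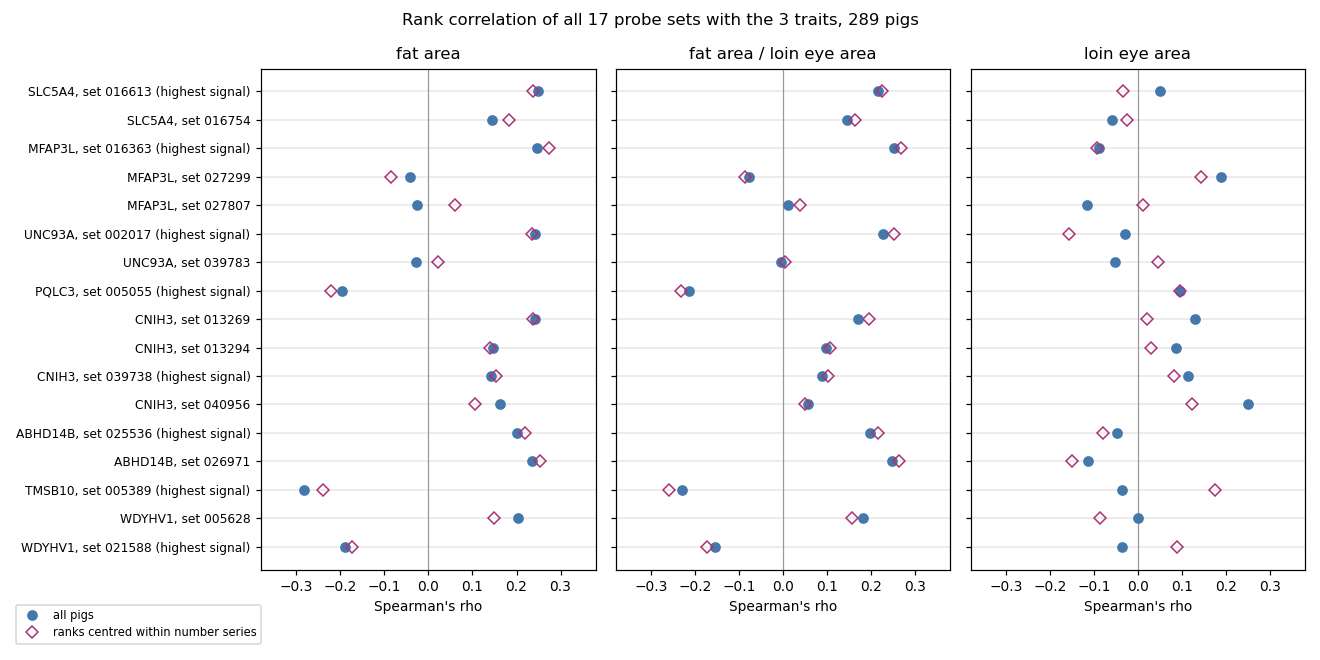
Spearman's rho (horizontal) of all 17 probe sets (vertical) with fat area, the ratio of fat to loin eye area, and loin eye area over the pigs with traits; filled points are pooled and open diamonds have ranks centred within number series. For fat area both markers lie close together in most rows, while for loin eye area TMSB10 moves from -0.035 to 0.174.

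Loin eye area did not choose the members, and here a test applies. LEA had a rho of -0.182 with FA, which did choose them, so the test is not wholly free of that choice. None of the 8 genes was called for LEA, with 0.822% of tested transcripts called, and none of the 11 tested sets was. At an unadjusted p under 0.05 there were 0 of the 8 and 4 of all 17 probe sets. These 4 were MFAP3L sets 027299 (0.190) and 027807 (-0.116) and CNIH3 sets 013269 (0.131) and 040956 (0.251), all below the filter on low signal. The share of all transcripts under this unadjusted limit was not taken, so nothing is read from the count. The largest value among the 8 belonged to CNIH3, with rho = 0.115 and a two-sided permutation p of 0.0512 (r = 0.116, permutation p = 0.049, FDR over all tested transcripts 0.233), and without the 2 pigs farthest from the median LEA its rho was 0.103. Within number series the rho of CNIH3 was 0.081 (FDR 0.792). The permutations were made over all pigs and did not keep to number series. PQLC3 followed with rho = 0.096 (permutation p = 0.103, r = 0.109, p = 0.0629, FDR 0.326) and MFAP3L with -0.088 (permutation p = 0.138, r = -0.109, p = 0.0652, FDR 0.375). For the other 5 rho was between -0.048 and 0.050, with permutation p from 0.394 to 0.625 and FDR from 0.638 to 0.800. The largest of all 17 sets was 0.251 for CNIH3 set 040956, which lay below the filter and fell to 0.124 within series. TMSB10 went from -0.035 to 0.174 and UNC93A from -0.029 to -0.156 once ranks were centred within series. Neither was called there, where only 5 of the 24815 tested transcripts were. With LEA held constant the rho of the members with FA ran from -0.294 to 0.263. FA chose the members, so this range is only a description.

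The level of some members differed strongly between number series. By a Kruskal-Wallis test 7 of the 8 genes differed between series at an FDR of 1%, where 86.7% of all tested transcripts did, so a call is the rule on these arrays. PQLC3 was the exception, with 5.0% of its rank variance between series and an FDR of 0.0646. The share was largest for TMSB10, 33.9%, above that of 94.3% of tested transcripts, whose median was 14.5%. Its lowest medians were 10.89 in series 21 and 10.985 in series 24, and the highest was 11.39 in series 27, and the 29 pigs of series 21 (10.10 to 11.23) scarcely overlapped the 20 of series 27 (11.12 to 11.78). UNC93A had 18.6%, with medians from 7.575 in series 28 to 8.36 in series 26. The share was 17.2% for ABHD14B (10.59 in series 23 to 10.925 in series 29), 10.6% for CNIH3, 8.7% for MFAP3L, 8.2% for WDYHV1 and 7.7% for SLC5A4. Series 26, with 9 pigs, had the highest median of UNC93A, MFAP3L and CNIH3.

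**Figure D4:**
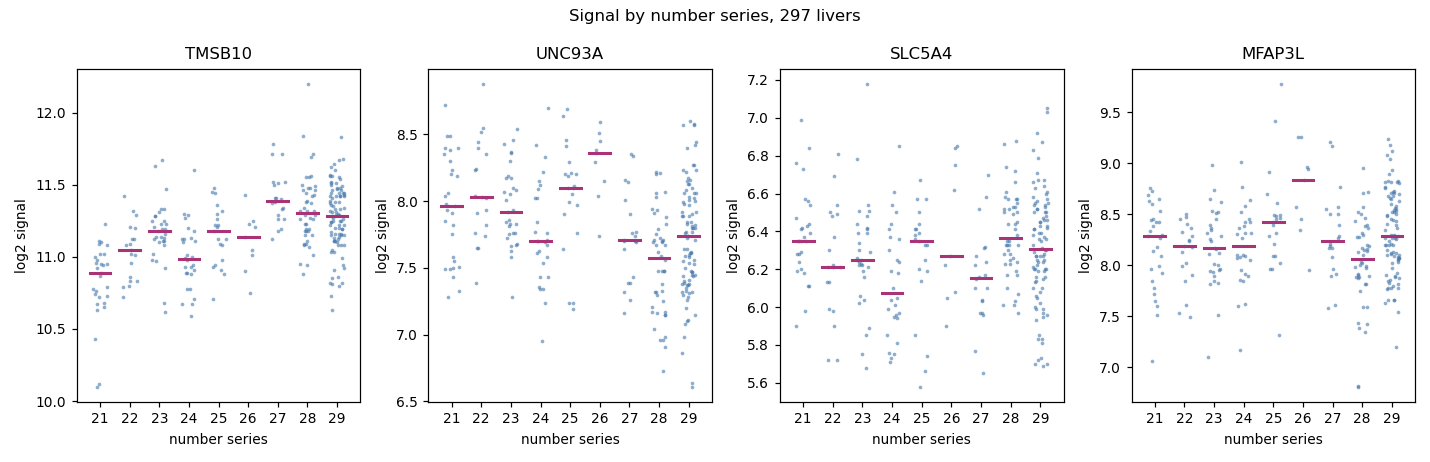
Log2 signal (vertical) of TMSB10, UNC93A, SLC5A4 and MFAP3L in each of the 9 number series (horizontal); points are all livers and bars the series medians. The medians of TMSB10 span 10.89 to 11.39, and those of SLC5A4 only 6.075 to 6.365.

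Co-expression was tested between each member and every tested transcript. The share called at an FDR of 1% differed widely, 0.661% for SLC5A4, 11.5% for PQLC3, 23.7% for WDYHV1, 27.2% for CNIH3, 36.3% for MFAP3L, 38.2% for UNC93A, 52.2% for ABHD14B and 56% for TMSB10. Among the 28 pairs of members rho ran from -0.228 to 0.367 with a median of 0.035, and 7 pairs were called from both sides (the larger of both FDRs is given). MFAP3L, UNC93A and ABHD14B were called with one another. The rho was 0.367 for MFAP3L with UNC93A (FDR 2.58e-09), 0.362 for UNC93A with ABHD14B (FDR 2.21e-09) and 0.330 for MFAP3L with ABHD14B (FDR 1.05e-07). PQLC3 and TMSB10 had 0.362 (FDR 3.23e-08), where 0.39% of tested transcripts had a larger size of rho with PQLC3 and 8.70% with TMSB10. For the 3 pairs among MFAP3L, UNC93A and ABHD14B these shares were 2.73% to 14.72%. SLC5A4 had 0.243 with ABHD14B (FDR 0.00519), which was 0.219 within number series and no longer called (FDR 0.0171). UNC93A fell as TMSB10 (-0.192, FDR 0.00272) and the first WDYHV1 set (-0.228, FDR 0.000748) rose, of which the former was -0.056 within number series (FDR 0.49) and the latter -0.180 with a score of X-linked genes held constant (FDR 0.0204), neither called. With the second WDYHV1 set UNC93A had 0.113, the opposite sign. With 5 principal components of the expression values removed, 0 of the 7 pairs were called, and the 2 called in their place were MFAP3L with TMSB10 (-0.231, FDR 0.00596) and ABHD14B with TMSB10 (-0.228, FDR 0.00222), which had -0.053 and 0.058 as deposited. The share of all transcripts called with a member is not given for that setting.

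**Figure D5:**
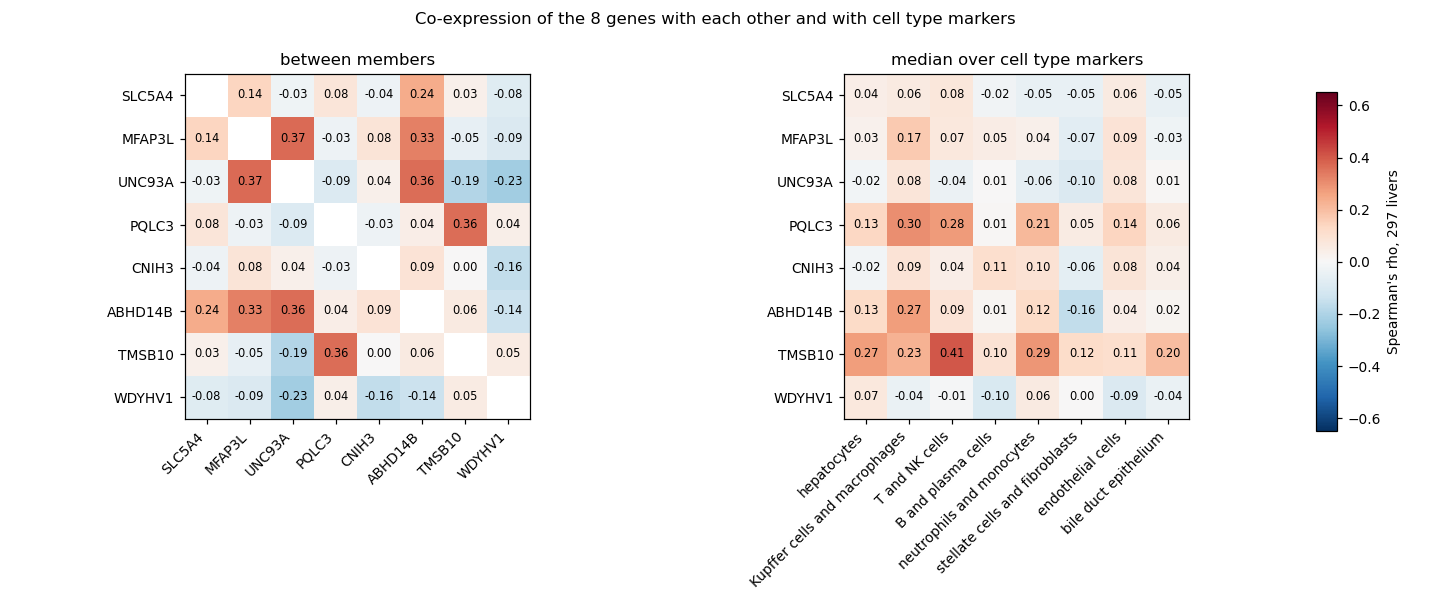
Spearman's rho over all livers between the 8 genes (left) and the median rho of each gene with the tested markers of 8 cell types (right), from blue (negative) to red (positive). MFAP3L, UNC93A and ABHD14B have a positive rho with one another, and PQLC3 and TMSB10 have 0.362 with each other. The highest median is with T and NK cell markers for TMSB10 (0.406) and with Kupffer cell markers for PQLC3 (0.303).

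The 5 named transcripts with the largest rho in size were read for each member. For MFAP3L they were QDPR, which recycles the cofactor of phenylalanine hydroxylase (rho 0.548), the endocytic receptor LRP1 (0.547), the peptidase PEPD (0.530), AHCY of the methionine cycle (0.521) and UROC1 of histidine breakdown (0.515). For UNC93A they were NICN1 (0.618), DHDPSL, an aldolase of hydroxyproline breakdown (0.602), TTYH2 (0.597), KIAA1161 (0.596) and the nucleoside carrier SLC29A1 (0.579). ABHD14B was nearest to VRTN (0.747, 0.801 within series), AES (0.653), the HDL receptor SCARB1 (0.653), ERGIC1 (0.637) and AMT of glycine cleavage (0.636). SLC5A4 had no close partner. PLEKHA6 came first with 0.348, followed by AMN1 (0.329), HEXIM2 (0.318) and CDC45 (0.314), and the fifth was the second set of WDYHV1, 005628, with 0.296. CNIH3 was similar, with ssc-mir-199b at 0.355 and CLOCK, a core circadian activator, at -0.336, then MOSPD1 (0.332), CEP170 (-0.327) and LOC100518807 (0.322).

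PQLC3 and TMSB10 went with markers of several leukocyte types, and TMSB10 also with hepatocyte markers. PQLC3 went with WIPF1 (0.501), an actin regulator of blood cells, with MSN (0.490), EVI2B (0.485), the cytokine receptor chain IL2RG (0.456) and FCER1G (0.454). TMSB10 went with LAPTM5 (0.658), the T cell receptor chain CD3E (0.653), PLCB2 (0.649), SLA-DRA, an antigen-presenting MHC chain (0.648), and LOC100158121 (0.644). Within number series these were 0.563 for LAPTM5, 0.525 for CD3E, 0.560 for PLCB2, 0.641 for SLA-DRA and 0.550 for LOC100158121. Of the 10 T and NK cell markers, 7 rose with TMSB10, where 38.3% of all transcripts did, with a median rho of 0.406 against 0.104 over all transcripts. With PQLC3 6 of 10 rose, where 9.61% of all transcripts did, with a median of 0.276 against 0.029. Of 8 neutrophil and monocyte markers, 7 rose with TMSB10 (median 0.286) and 5 with PQLC3 (median 0.209). Of 5 B and plasma cell markers, 1 rose with TMSB10 (median 0.096) and 0 with PQLC3 (median 0.010). Of 7 Kupffer cell markers 4 rose with TMSB10 (median 0.228) and 4 with PQLC3 (median 0.303, its highest among the 8 cell types), among them C1QC (0.432 and 0.382). With ABHD14B 5 of the 7 rose (median 0.273), where 52.2% of all transcripts were called in either direction, and with MFAP3L 4 (median 0.172), where 36.3% were. CD163 fell as TMSB10 (-0.182), ABHD14B (-0.357) and MFAP3L (-0.196) rose. Of 9 hepatocyte markers 6 rose with TMSB10 and 1 fell (median 0.272), and of 5 bile duct markers 3 rose and 1 fell (median 0.200). With PQLC3 2 hepatocyte markers rose (median 0.134) and 0 of the bile duct ones. Of 9 endothelial markers 3 rose with TMSB10 (median 0.108) and 2 with PQLC3 (median 0.141). Of 9 stellate cell and fibroblast markers 3 rose with TMSB10 (median 0.117) and 1 with PQLC3 (median 0.051). In bulk tissue, fewer cells of a type and less RNA per cell cannot be told apart.

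These leukocyte markers themselves were not called for FA. All 10 T and NK markers had a negative rho, from -0.143 for CD247 to -0.001 for CD8A, none past the FDR, and their mean rank score had -0.167 with FA, 0.636 with TMSB10 and 0.429 with PQLC3. With this score held constant, a setting chosen after the data had been seen, the rho with FA was -0.238 for TMSB10 and -0.143 for PQLC3. The part of leukocytes in the values of both genes was not tested further.

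For WDYHV1 the 2 sets also had different companions. The first was nearest to ZFAND5 (0.681), ZBTB16 (0.614), SALL1 (0.610), the stress gene GADD45B (0.602) and the phosphatidate phosphatase LPIN2 (0.576), and with the second these 5 had between -0.193 and -0.038, none called. The second set, chosen after its values were seen, was nearest to the RNA-binding protein PCBP2 (0.449), LOC100517166 (0.408), FAM149A (0.398), the ribosomal protein RPLP2 (0.396) and ELP3 (0.379), and 5.46% of transcripts were called with it. With the first set those 5 had between -0.108 and 0.076, none called.

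The other genes of each family were read against the share called among all transcripts. Of 11 tested sugar carriers none was called with SLC5A4, where 0.661% of all transcripts were, SLC5A1 having -0.018 and the liver glucose carrier SLC2A2 0.163. None of 4 PQ loop carriers was called with PQLC3 (CTNS 0.182, FDR 0.0132), where 11.5% of all were, and none of 6 microfibril-associated genes with MFAP3L, where 36.3% of all were. MFSD11, the one tested relative of UNC93A, had 0.350 with it (FDR 7.99e-09), where 38.2% of all transcripts were called. Of 10 cornichon and COPII coat genes, 3 fell as CNIH3 rose, SEC24B (-0.260), SAR1B (-0.195) and SEC31A (-0.183), against a share of 27.2% called among all transcripts. Of 14 other alpha/beta hydrolases 9 rose with ABHD14B and 3 fell, from -0.372 for ABHD13 to 0.458 for ABHD2, a share read against 52.2%. Among 15 genes of actin binding and assembly 10 rose with TMSB10, where 38.3% of all transcripts did, led by CAPG (0.608), ARPC1B (0.523) and ACTG1 (0.502), and TWF1 fell (-0.338). Of 9 N-degron genes METAP1 (0.232), METAP2 (0.216) and ATE1 (0.202) rose with the first set of WDYHV1, where 23.7% of all transcripts were called. Over all these 70 family genes 1 was called for FA, ABHD15, with rho = 0.277 (FDR 0.00207), and 0 for LEA.

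Genes on the same stretch of chromosome were read for 5 annotated genes on each side of a member. Of 45 tested neighbours 22 were called with their member, 6 of them with ABHD14B and 6 with TMSB10, where 52.2% and 56% of all transcripts were called. With CNIH3, whose set lay near the filter on low signal, 4 of 8 were called, against 27.2% of all transcripts. All 4 fell as it rose, DEGS1 (-0.260), SRP9 (-0.244), WDR26 (-0.240) and NVL (-0.202). With MFAP3L 3 of 5 were called, against 36.3%, of which CLCN3 rose (0.216) and NEK1 (-0.304) and LOC100158040 (-0.179) fell. The others were 1 of 4 with UNC93A (GPR31, 0.168, against 38.2%), 1 of 7 with PQLC3 (ROCK2, -0.205, against 11.5%) and 1 of 3 with WDYHV1 (FBXO32, against 23.7%). All 6 tested neighbours of ABHD14B rose with it, led by ACY1, which frees amino acids from their acetylated form (0.586), PCBP4 (0.547) and PARP3 (0.443). Only 0.10% and 0.29% of tested transcripts had a larger size of rho with ABHD14B than ACY1 and PCBP4. The adjoining ABHD14A had 0.212, and RRP9 went from 0.222 to 0.082 within number series. For TMSB10 all 6 were called, 4 rising and 2 falling, and CAPG at 0.608 was exceeded by 0.06% of transcripts. Within number series CAPG had 0.476, while TCF7L1 went from 0.333 to 0.070 and SUCLG1 from -0.177 to 0.114. With SLC5A4 0 of 6 tested neighbours were called, where 0.661% of all transcripts were. FBXO32, the neighbour of WDYHV1, had -0.310 with the first set and 0.151 with the second. None of the 45 was called for FA.

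Sex was not labelled, and some X-linked genes were lower in fatter pigs. Of 7 tested X-linked genes that escape inactivation in other mammals, KDM6A (-0.337) and EIF2S3 (-0.273) were called for FA, and the other 5 had -0.174 to 0.056. The 7 did not move as one, since with ABHD14B rho ran from -0.495 for DDX3X to 0.291 for KDM5C and 0.455 for UBA1. The mean rank score of the 7 had -0.315 with FA, -0.347 with ABHD14B, 0.265 with WDYHV1, -0.225 with UNC93A, -0.173 with MFAP3L, -0.153 with CNIH3, -0.122 with SLC5A4, 0.039 with PQLC3 and -0.013 with TMSB10. EIF1AY, the one tested Y-linked gene, had -0.174 with FA, -0.400 with UNC93A, -0.262 with MFAP3L, -0.251 with ABHD14B and 0.276 with WDYHV1. It had -0.125 with CNIH3, 0.023 with SLC5A4, -0.026 with PQLC3 and -0.010 with TMSB10. For SLC5A4 and PQLC3 its sign was opposite to that of the X-linked score, and for FA and the other members it was the same. Neither the score nor EIF1AY was checked against sex. With the X-linked score held constant, the rho with FA was 0.104 for ABHD14B, -0.120 for WDYHV1, 0.092 for CNIH3, 0.189 for UNC93A, 0.197 for MFAP3L, 0.221 for SLC5A4, -0.192 for PQLC3 and -0.299 for TMSB10. Whether sex has a part in these values was not tested.

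A variant near a gene can split its signal into levels, so the shape of each distribution was described. By BIC, 31.7% of tested transcripts took more than 1 normal component, and 1 of the 8 main sets did, the first set of WDYHV1. Its components had means of 6.45 (28.7% of livers) and 7.83 (71.3%) with SDs of 1.0 and 0.53, so they overlapped, and the gain in BIC over a single component was 49.9, larger than in 96% of tested transcripts. The skewness was -1.11. The main sets of the other 7 genes took a single component, with skewness between -0.48 and -0.01. Of the other sets 2, both below the filter on low signal, took 2 components, SLC5A4 set 016754 and MFAP3L set 027299, with gains of 5.1 and 4.6.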

How the data were processed

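Liver RNA of 297 pigs was hybridised to 1 array each, and 289 pigs had all 3 traits (139 with odd and 150 with even numbers, 149 below 2800 and 140 from there on). Signals were deposited on the log2 scale, after the authors had normalised them with RMA, the robust multichip average. GCOS 1.1.1 is named in the submitters' processing notes. RMA sets all arrays to one distribution, so a shift shared by all transcripts cannot be seen. Arrays have no read depth, and their number limits the precision. Each array is a separate pig.

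The 123 controls among 47845 probe sets were removed. Tested were 24815 others, those whose 20th percentile of signal was at least 5.33, in place of detection in 80% of samples as in the study's methods. Symbols came from the platform annotation, and 26426 probe sets had 1 symbol. The study correlated residuals after genetic similarity, components, gender and carcass weight, and here values were used as deposited. For Spearman's rho the t approximation gave p, adjusted after Benjamini-Hochberg over every tested transcript and called at 1%, and 100000 permutations for LEA. Number series were compared by Kruskal-Wallis tests. Mixtures of 1 to 3 normal components were fitted by mclust. Scripts were tested on simulated data.

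The members and the gene lists were chosen with earlier results of these data known. Eligible to be named were all members, list genes, the 5 nearest named transcripts of each member and 5 genes on each side. The 5 nearest are all given, and of the lists and neighbours mainly those called. Gene order came from RefSeq (assembly Sscrofa11.1). Alternatives were Pearson's r, centring within number series, removal of 5 principal components (44.8% of variance), covariates, parts of the pigs, other probe sets and other filters. The score of T and NK markers and the second WDYHV1 set were added after the data had been seen. Software was Python 3.11.15, numpy 2.4.6, scipy 1.17.1, pandas 2.3.3, matplotlib 3.10.9, R 4.3.3 and mclust 6.1.1.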

Additional observations from a re-analysis of the deposited data

How the results depend on the processing

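The count of members called for LEA was 0 under all 12 alternatives. Within number series only 5 of the 24815 tested transcripts were called for LEA, so a count of 0 says little there. No share over all transcripts is given for the other alternatives. The 16 values of rho with LEA that changed sign were all uncalled. They were for SLC5A4 -0.034 (within series), -0.084 (odd), -0.018 (from 2800 on) and -0.026 (mean of probe sets), for MFAP3L 0.038 (odd), for UNC93A 0.025 (X-linked score), 0.044 (below 2800) and 0.016 (FA held constant), for ABHD14B 0.041 (X-linked score), for TMSB10 0.174 (within series), 0.090 (components removed), 0.009 (even) and 0.182 (from 2800 on), and for WDYHV1 0.089 (within series), 0.012 (components removed) and 0.015 (from 2800 on). With 5 principal components removed, 2 pairs of members were called in place of 7, none of them the same, and the 7 genes called for number series became 3. No share over all transcripts is given with the components removed, so neither change is read as particular to the members. Without these components MFAP3L had 0.055 with UNC93A and 0.041 with ABHD14B, and PQLC3 had 0.143 with TMSB10. The cause was not tested. Since FA chose the members, their count past the FDR for FA is only a description. It was 4 of 8 and fell to 2 with Pearson's r, with ranks centred within number series, with 5 principal components removed and with the X-linked score, to 1 without the 2 pigs farthest from the median, below 2800, with the mean of a gene's probe sets and with all probe sets tested, and to 0 in odd numbers, even numbers and from 2800 on, where fewer pigs entered. It was 3 in the brighter part of the tested transcripts. With ranks centred within number series, more of all tested transcripts were called for FA than with pooled ranks, though fewer members were. There rho was larger in size for MFAP3L, PQLC3, CNIH3 and ABHD14B, and smaller for SLC5A4, UNC93A, TMSB10 and WDYHV1. For the other alternatives the share called for FA among all transcripts is not given. Nothing is therefore read from how the count moved. With the gene's main probe set or the mean of its sets no rho with FA changed sign, though single sets did (-0.029 for UNC93A, -0.043 and -0.027 for MFAP3L, 0.204 for WDYHV1). A plan to use the probe set that the study lists with FA was not run, since its identifiers could not be matched to those of the table. No paired analysis was possible because there is 1 group and each number belongs to 1 pig. Over all tested transcripts the smallest rho called was 0.2419 in size with FA and 0.2299 with LEA. This limit is set by the adjustment in each fit, and it moves with the trait and the setting.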
